A study of Homo sapiens with 6 samples.

Results

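The heat shock proteins and the co-chaperones that work with HSP90 were followed in OVCAR-3 ovarian cancer cells after knockdown of COX-1. The group was set by gene name: 46 names covering small heat shock proteins, the HSP70, HSP110 and HSP90 families, the mitochondrial chaperonin, J-domain proteins, heat shock factors, HSP90 co-chaperones and BAG proteins. Of these, 45 named genes that matched a row among the 34811 genes counted, and 1 name, SERPINH1_excluded, is not a gene and matched none.

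Heat shock proteins are molecular chaperones that bind unfolded or unstable proteins. HSP70 is loaded with clients by J-domain proteins and recharged by nucleotide exchange factors, and HSP90 then matures clients such as kinases and steroid receptors with the help of co-chaperones. Many of these genes are transcribed by HSF1 under proteotoxic stress, and ovarian cancer cells are known to rely on HSP90 and HSP70 for the stability of oncogenic clients. One of the co-chaperones, p23 (PTGES3), also carries the name cytosolic prostaglandin E synthase, which places it next to COX-1 in prostaglandin synthesis.

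OVCAR-3 is an established line of human ovarian carcinoma. OV3/SCR cells carry a scrambled pRS shRNA HuSH-29 plasmid and OV3/COX1KD cells the same plasmid type with an shRNA against COX-1; both are stable clones kept through puromycin selection and grown in RPMI-1640 with 10% FBS, with no heat shock or drug in the comparison. RNA-seq was run on 3 passages of 1 OV3/SCR clone and 3 passages of 1 OV3/COX1KD clone, so knockdown and clone cannot be told apart, and p-values measure the spread between passages only. The gene for COX-1, PTGS1, had 713, 658 and 641 counts in OV3/SCR replicates 1 to 3 and 456, 486 and 501 in OV3/COX1KD replicates 1 to 3, a level of 73.3% of control (log2 fold change -0.45, SE 0.057, edgeR FDR 1.3e-06).

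Library totals lay between 25291505 and 27391538 counts, and 3 counts, taken as the limit of detection, corresponded to 0.110 to 0.119 CPM (counts after TMM scaling to libraries of equal size). The limit covers counting error alone. All 10 epithelial markers were above 3 counts, with a summed level of 5766 to 5831 CPM in OV3/SCR and 7446 to 7649 CPM in OV3/COX1KD. The 10 did not move together: KRT8, KRT18, KRT19, EPCAM, CDH1, MUC16 and MSLN were higher in OV3/COX1KD, and PAX8 (to 59% of control, log2 fold change -0.76, edgeR FDR 4.3e-13), WFDC2 (-0.29) and KRT7 (-0.14) were lower. The summed leukocyte markers (4 genes, 0.338 to 0.998 CPM) and endothelial markers (2 genes, 0.998 to 1.95 CPM, CDH5 at or under 3 counts) were low in all 6 libraries, and PECAM1 was not analysed here. The 5 fibroblast markers summed to 10.9 to 11.6 CPM in OV3/SCR and 6.57 to 7.43 CPM in OV3/COX1KD, with LUM at or under 3 counts. The part of these shifts in the chaperone values was not tested.

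Of the tested members 69.2% differed between the clones, and most of the differences were small. Among all tested genes 47.9% differed, and among those whose log2 CPM averaged 5 or more, 67.1%. Of the 45 members, 39 passed the filter on low counts, 19 of them were lower and 8 higher in OV3/COX1KD at an edgeR FDR under 0.01, and 12 did not pass. CRYAB, a small heat shock protein, fell to 8.32% of its OV3/SCR level, and the HSP90-binding protein CHORDC1 fell to 45.1%. HSP90AA1 fell to 77.5% while HSP90AB1 rose to 134%. Of the 9 HSP90 co-chaperones among the members, 7 were lower (77.8%, where 22.1% of all tested genes were) and none higher. The 10 further HSP90 co-chaperones tested did not share this, with none lower and 2 higher. In bulk RNA, fewer expressing cells and less RNA per cell cannot be told apart.

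Among all 17309 genes tested, 47.9% passed the same threshold, 25.8% as higher and 22.1% as lower. The tested members passed at 69.2%, with 20.5% higher and 48.7% lower. Their median log2 fold change was -0.15, against -0.009 over all tested genes, whose quartiles were -0.30 and 0.26. Chaperone transcripts are abundant, and abundant genes pass more often. Of the 6186 genes whose log2 CPM averaged 5 or more, 67.1% passed, 40.3% as higher and 26.9% as lower. Of the 30 members at that abundance, 20.0% were higher and 56.7% lower.

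Beyond a log2 fold change of 0.5 the picture was narrower. Only HSPA2 was higher by that much, 1 of 39 members, where 9.87% of all tested genes were. CRYAB, CHORDC1, HSPH1, DNAJB2 and PTGES3 were lower by that much, 5 of 39, where 10.0% of all tested genes were. The remaining 21 called members changed by less than 0.5. Scaling by total counts in place of TMM moved the split of calls to 3 higher and 24 lower, with HSPB11, HSPA4, TRAP1, DNAJA2 and HSF1 no longer called higher, while all tested genes moved from 4473 higher and 3820 lower to 3466 and 4978, and their median to -0.087.

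**Figure D1:**
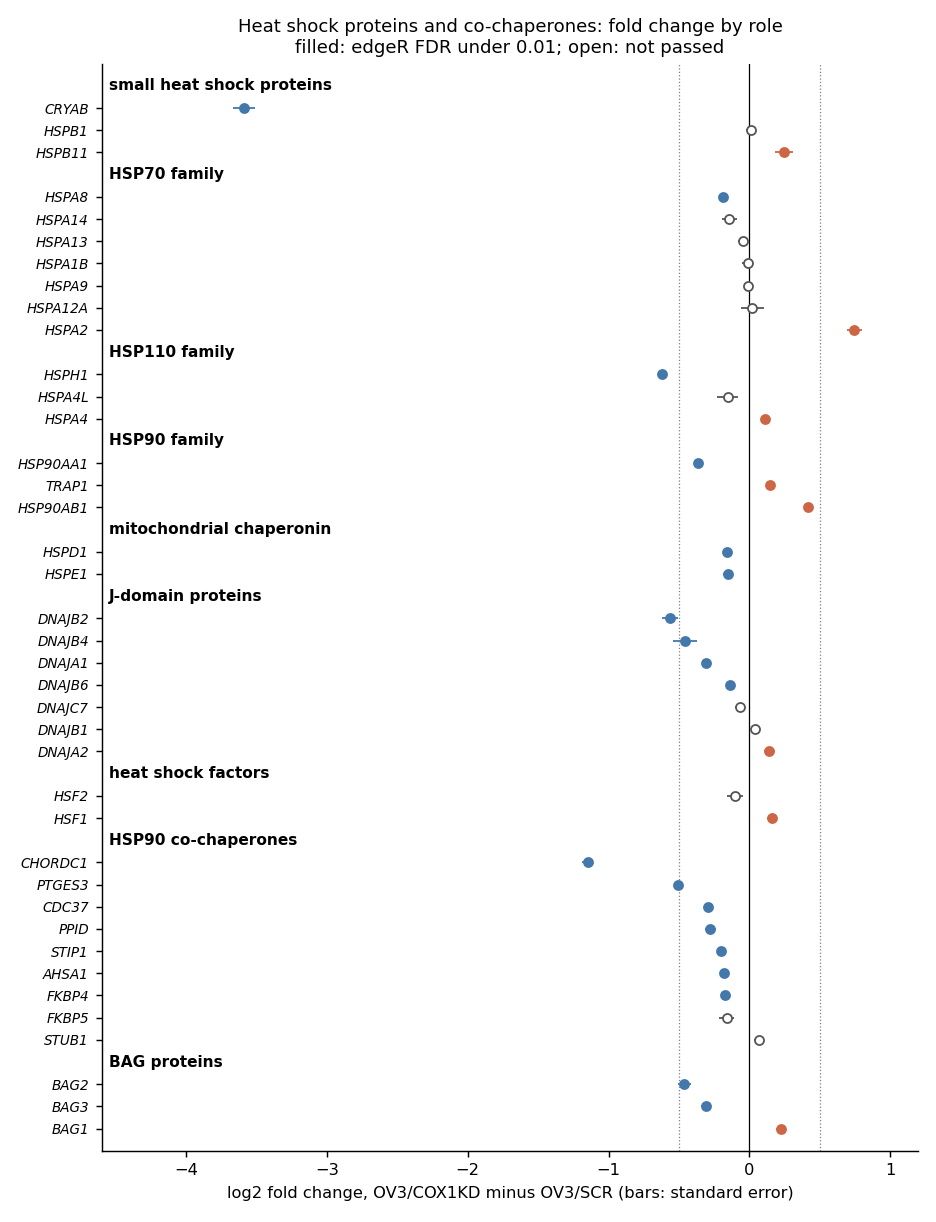
Log2 fold change of OV3/COX1KD against OV3/SCR (horizontal axis) for the 39 tested members grouped by role, with bars for the standard error, dotted lines at -0.5 and 0.5, and filled points for an edgeR FDR under 0.01. CRYAB at -3.59 and CHORDC1 at -1.15 lie far to the left, HSPA2 at 0.74 is the only point beyond 0.5 on the right, and 19 filled points are below 0 against 8 above.

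All members together took 1.39%, 1.36% and 1.38% of the counts in OV3/SCR replicates 1 to 3 and 1.17%, 1.16% and 1.19% in OV3/COX1KD replicates 1 to 3. The 3 OV3/COX1KD libraries were thus below the 3 OV3/SCR libraries. HSP90AA1, HSPA8, HSP90AB1 and HSPD1 held 58.6% to 60% of these counts in each library, so the sum follows 4 genes. The shares are of total counts, without TMM scaling. Under total count scaling the median log2 fold change of all tested genes was -0.087, against -0.009 with TMM, so part of the drop is shared with genes at large.

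The heat shock element, the sequence that HSF1 binds, is a run of inverted 5-base units. A core of 3 units was searched on both strands as GAANNTTCNNGAA or TTCNNGAANNTTC, overlapping matches included, in RefSeq promoter windows of GRCh38.p14 that run from 250 bases before to 50 after a transcription start. It occurred in 166 of 27305 genes (0.608%) and in 8 of the 38 members with a window (21.1%): CHORDC1, DNAJA1, DNAJB6, HSP90AA1, HSP90AB1, HSPA6, HSPA8 and HSPD1. Windows of CRYAB, HSPB2, HSPB11, HSPA14, HSF1, FKBP4 and STUB1 were not in the table. A core of 2 units, GAANNTTC or TTCNNGAA, occurred in 16.2% of all genes and in 20 of the 38 members (52.6%). The windows of CHORDC1, DNAJA1, HSP90AA1 and HSP90AB1 are shown because these genes carry the 3 units and include the largest fall among them and both directions of the HSP90 pair; each window matched GRCh37 at 1 place, and the capitals mark the motif. The CHORDC1 window lies at chr11:89956168-89956467 on the minus strand and holds 3 overlapping matches from base -60, counted from the transcription start. The DNAJA1 window is chr9:33025021-33025320 on the plus strand, with the motif from base 4. The HSP90AA1 window, 1 of 2 for that gene, is chr14:102553332-102553631 on the minus strand, with the motif from base -88. The HSP90AB1 window, 1 of 3 for that gene, is chr6:44215430-44215729 on the plus strand, with 2 matches, the first from base -165.
CHORDC1: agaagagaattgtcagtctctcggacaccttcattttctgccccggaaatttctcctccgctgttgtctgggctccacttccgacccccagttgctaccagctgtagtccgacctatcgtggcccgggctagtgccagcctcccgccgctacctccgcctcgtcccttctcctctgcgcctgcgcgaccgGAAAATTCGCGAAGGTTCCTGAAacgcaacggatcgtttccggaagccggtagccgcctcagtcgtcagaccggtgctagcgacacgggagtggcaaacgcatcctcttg
DNAJA1: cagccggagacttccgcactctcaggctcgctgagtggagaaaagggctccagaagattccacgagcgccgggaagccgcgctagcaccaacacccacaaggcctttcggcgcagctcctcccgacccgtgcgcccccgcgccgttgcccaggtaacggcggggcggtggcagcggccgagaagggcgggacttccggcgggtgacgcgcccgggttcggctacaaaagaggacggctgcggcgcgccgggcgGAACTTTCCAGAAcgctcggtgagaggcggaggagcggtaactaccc
HSP90AA1: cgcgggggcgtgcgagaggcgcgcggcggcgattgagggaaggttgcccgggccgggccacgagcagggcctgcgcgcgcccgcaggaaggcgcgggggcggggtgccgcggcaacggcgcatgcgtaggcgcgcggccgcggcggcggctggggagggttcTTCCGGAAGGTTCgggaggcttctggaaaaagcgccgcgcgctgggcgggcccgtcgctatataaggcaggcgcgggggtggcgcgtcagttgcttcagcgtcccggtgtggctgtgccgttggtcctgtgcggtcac
HSP90AB1: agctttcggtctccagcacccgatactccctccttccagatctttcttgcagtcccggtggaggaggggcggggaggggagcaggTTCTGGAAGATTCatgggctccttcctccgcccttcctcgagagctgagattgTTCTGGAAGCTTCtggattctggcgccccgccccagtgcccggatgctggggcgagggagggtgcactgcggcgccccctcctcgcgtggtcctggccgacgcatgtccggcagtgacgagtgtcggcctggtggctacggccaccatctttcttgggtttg

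Of the 7 tested members with the 3 units, 6 were lower and 1, HSP90AB1, was higher, with a median log2 fold change of -0.19. Of the 26 tested members with a window but without the 3 units, 11 were lower, 5 higher and 10 did not pass, with a median of -0.12. Among all tested genes 22.1% were lower and 25.8% higher, and among the abundant genes 26.9% and 40.3%. The sets with and without the 3 units were not matched for abundance, and whether they differ was not tested. These counts describe the letters of 1 window length, and neither a match nor its absence measures HSF1 binding or activity.

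The small heat shock proteins hold aggregating proteins in a soluble state without using ATP. CRYAB (αB-crystallin; chromosome 11 of GRCh37, 111779288 to 111794446, minus strand) had 1480, 1534 and 1625 counts in OV3/SCR replicates 1 to 3 and 134, 131 and 112 in OV3/COX1KD replicates 1 to 3. The groups were far apart, with the lowest OV3/SCR library well above the highest OV3/COX1KD library. The level fell from 59.1 ± 3.67 to 4.92 ± 0.621 CPM (SD, n = 3), a 12-fold difference (log2 fold change -3.59, SE 0.0759, edgeR FDR 5.7e-18). Of its exon length, 13.6% overlaps exons of other genes, mainly HSPB2 on the opposite strand, and the library kit does not mark strand. HSPB2 itself had 4, 5 and 3 counts in OV3/SCR and 0, 3 and 3 in OV3/COX1KD. The other genes within 2 Mb of CRYAB whose log2 CPM averaged 1 or more, 19 in number, had a median log2 fold change of 0.07.

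HSPB1 (HSP27), the abundant small heat shock protein of epithelial cells, had 7934, 7945 and 7487 counts in OV3/SCR and 7663, 7693 and 7628 in OV3/COX1KD. The groups overlapped, and the difference did not pass (log2 fold change 0.01, SE 0.0326, edgeR FDR 0.829). Per kb of exon, HSPB1 stood at 183 ± 4.71 CPM in OV3/SCR against 13.5 ± 0.837 for CRYAB, and at 184 ± 6.95 against 1.12 ± 0.142 in OV3/COX1KD. HSPB11, a member of the intraflagellar transport machinery named with this family, had 382 to 431 counts in OV3/SCR and 460 to 489 in OV3/COX1KD. It rose by a log2 fold change of 0.24 (SE 0.0643, edgeR FDR 0.00310), a call lost without OV3/SCR replicate 1 or 2, under total count scaling and with DESeq2.

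The other small heat shock proteins had few counts. HSPB6, known from muscle, had 7, 2 and 6 counts in OV3/SCR and 2, 4 and 3 in OV3/COX1KD. HSPB8, the partner of BAG3 in chaperone-assisted autophagy, had 1, 1 and 2 counts and 0, 1 and 0. Neither they nor HSPB2 passed the filter, and a difference was not detectable at this depth.

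**Figure D2:**
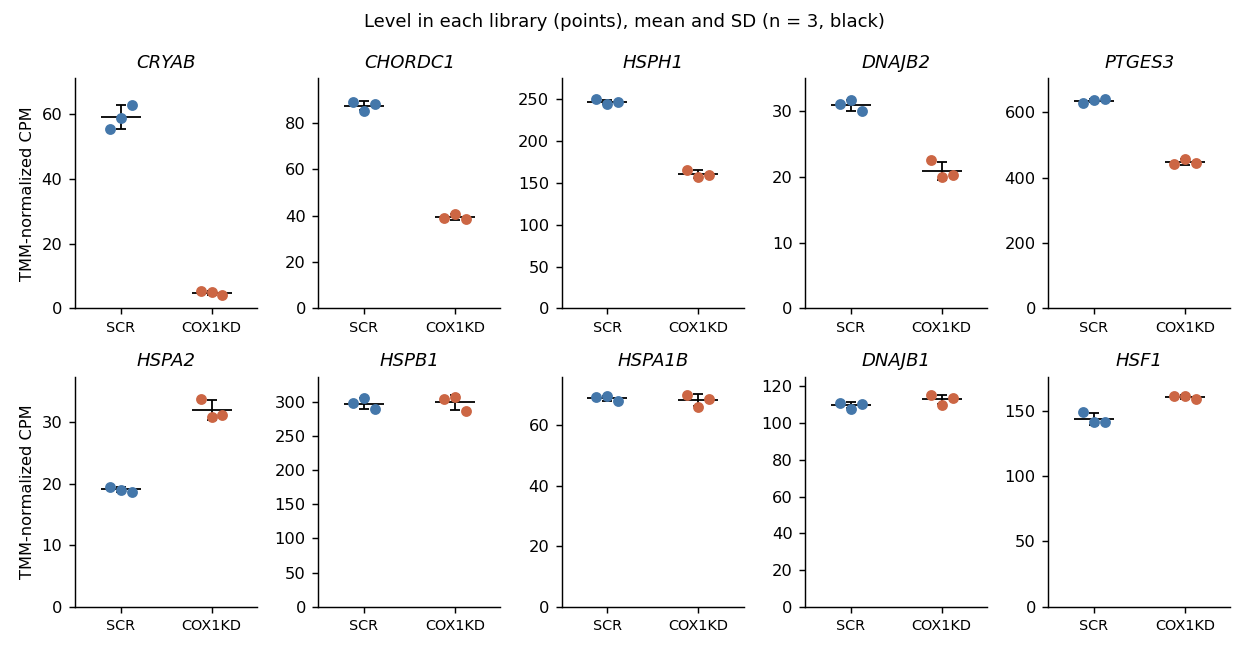
TMM-normalized CPM (vertical axes, from 0) of 10 members in each of the 3 OV3/SCR and 3 OV3/COX1KD libraries, with the mean and SD in black. CRYAB, CHORDC1, HSPH1, DNAJB2 and PTGES3 separate downwards and HSPA2 upwards, the points of HSPB1, HSPA1B and DNAJB1 overlap between the groups, and those of HSF1 lie slightly higher in OV3/COX1KD.

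The HSP70 family are ATP-driven chaperones that bind short exposed stretches of a client. Of its 7 tested members, 1 was higher, 1 lower and 5 did not pass, so that 28.6% were called where 47.9% of all tested genes were. HSPA8, the constitutive cytosolic HSP70, had 59086, 55384 and 56607 counts in OV3/SCR and 47951, 46431 and 52527 in OV3/COX1KD. The lowest OV3/SCR library was above the highest OV3/COX1KD library. Its level fell from 2177 ± 46.9 to 1910 ± 59.5 CPM (SD, n = 3; log2 fold change -0.19, SE 0.0291, edgeR FDR 1.5e-05), and 15.1% of its exon length overlaps other genes, small nucleolar RNAs among them.

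HSPA2, best known for its role in spermatogenesis (chromosome 14, 65002623 to 65012891, plus strand), had 519, 495 and 482 counts in OV3/SCR and 851, 771 and 830 in OV3/COX1KD. Every OV3/COX1KD library was higher than every OV3/SCR library. Its level rose from 19 ± 0.414 to 31.9 ± 1.66 CPM (log2 fold change 0.74, SE 0.0557, edgeR FDR 7.1e-10), and no exon of another gene overlaps it. It remained a minor HSP70, at 5.8 ± 0.301 CPM per kb of exon in OV3/COX1KD where HSPA8 stood at 394 ± 12.3.

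The stress-inducible HSP70 genes showed no difference beyond the spread. HSPA1B had 1841, 1807 and 1752 counts in OV3/SCR and 1757, 1654 and 1826 in OV3/COX1KD, and HSPA1A had 4, 10 and 14 against 6, 5 and 6. The groups overlapped for each, and HSPA1B gave a log2 fold change of -0.01 (SE 0.0373, edgeR FDR 0.787). Of the 50-base stretches of HSPA1A, 73.7% also occur in HSPA1B, so the split of reads between these near-identical genes is uncertain. Taken against their sum, HSPA8 counts stood at a ratio of 31.5 ± 0.9 in OV3/SCR and 28 ± 0.737 in OV3/COX1KD (SD, n = 3; exact two-sided permutation p = 0.10, the smallest that 3 libraries against 3 allow). HSPA6, which is induced strongly by heat and carries the 3-unit motif, had 13, 13 and 5 counts in OV3/SCR and 3, 5 and 5 in OV3/COX1KD. It shares 45.8% of its 50-base stretches with HSPA7. HSPA1L had 10, 10 and 5 counts against 17, 3 and 6. HSPA6, HSPA1L and HSPA1A did not pass the filter, and with no filter the 6 scarce members had an edgeR FDR of 0.0612 to 0.885.

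HSPA9 (mortalin), the mitochondrial HSP70, had 14202, 13420 and 13581 counts in OV3/SCR and 13011, 12932 and 14041 in OV3/COX1KD. The groups overlapped, at 524 ± 8.93 and 520 ± 6.08 CPM (log2 fold change -0.01, edgeR FDR 0.731). HSPA12A, HSPA13 and HSPA14, divergent members of the family, also did not pass, with log2 fold changes of 0.02, -0.04 and -0.14 (edgeR FDR 0.844, 0.312 and 0.0268); HSPA13 and HSPA14 were called lower under total count scaling.

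HSP110 proteins are relatives of HSP70 that act as its exchange factors and take part in disaggregation. HSPH1 (chromosome 13, 31709110 to 31736525, minus strand) had 6655, 6371 and 6368 counts in OV3/SCR and 4164, 3937 and 4252 in OV3/COX1KD. The groups did not overlap, and no exon of another gene overlaps it. Its level fell from 247 ± 2.62 to 161 ± 4.28 CPM (log2 fold change -0.62, SE 0.0307, edgeR FDR 1.4e-12). HSPA4, the most abundant of the 3 per kb of exon in each condition, rose by a log2 fold change of 0.11 (edgeR FDR 0.00176), a call lost under total count scaling, without OV3/SCR replicate 2 and without OV3/COX1KD replicate 1. HSPA4L was at -0.15 and did not pass (edgeR FDR 0.0742), but was called lower under total count scaling.

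The cytosolic HSP90 genes moved in opposite directions. HSP90AA1, the more stress-inducible form (chromosome 14, 102547079 to 102606036, minus strand), had 97910, 93543 and 94746 counts in OV3/SCR and 71320, 68701 and 77182 in OV3/COX1KD. HSP90AB1, the more constitutive form (chromosome 6, 44213903 to 44221625, plus strand), had 34850, 35909 and 34883 counts and 45795, 44779 and 47640. Neither gene overlapped between the groups. HSP90AA1 fell from 3643 ± 45.9 to 2824 ± 78.1 CPM (log2 fold change -0.37, SE 0.0274, edgeR FDR 7.1e-10). HSP90AB1 rose from 1345 ± 35.5 to 1798 ± 18.5 CPM (log2 fold change 0.42, SE 0.0278, edgeR FDR 1.2e-10). Both genes carry the 3-unit motif in the window shown above, which lies within the annotated gene, and not in their other windows. Of their 50-base stretches, 14.4% and 16.6% also occur in other genes, largely HSP90 pseudogenes.

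The count ratio of HSP90AA1 to HSP90AB1 within a library, which does not depend on scaling, was 2.81, 2.61 and 2.72 in OV3/SCR and 1.56, 1.53 and 1.62 in OV3/COX1KD. The groups were apart, by -0.79 on the log2 scale. The exact two-sided permutation test gave p = 0.10, the smallest that 3 libraries against 3 allow, and 0.13 after adjustment over the 4 ratios tested. Of the counts of the pair, HSP90AA1 held 73.7%, 72.3% and 73.1% in OV3/SCR and 60.9%, 60.5% and 61.8% in OV3/COX1KD. Per kb of exon, HSP90AA1 made up 62.2%, 60.4% and 61.4% of the pair in OV3/SCR and 47.7%, 47.3% and 48.6% in OV3/COX1KD. By that measure alone HSP90AB1 was the more abundant in the OV3/COX1KD libraries. That order rests on the merged exon lengths, 5097 bases for HSP90AA1 and 2980 for HSP90AB1, and is uncertain. The summed level of both genes was 4980, 4968 and 5015 CPM in OV3/SCR and 4654, 4529 and 4685 CPM in OV3/COX1KD. The genes within 2 Mb of HSP90AA1 had a median log2 fold change of -0.15, with 9 above and 23 below 0. Those within 2 Mb of HSP90AB1, 41 in number, had a median of 0.01. The part of the neighbouring genes' shift in the HSP90AA1 value was not tested.

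**Figure D3:**
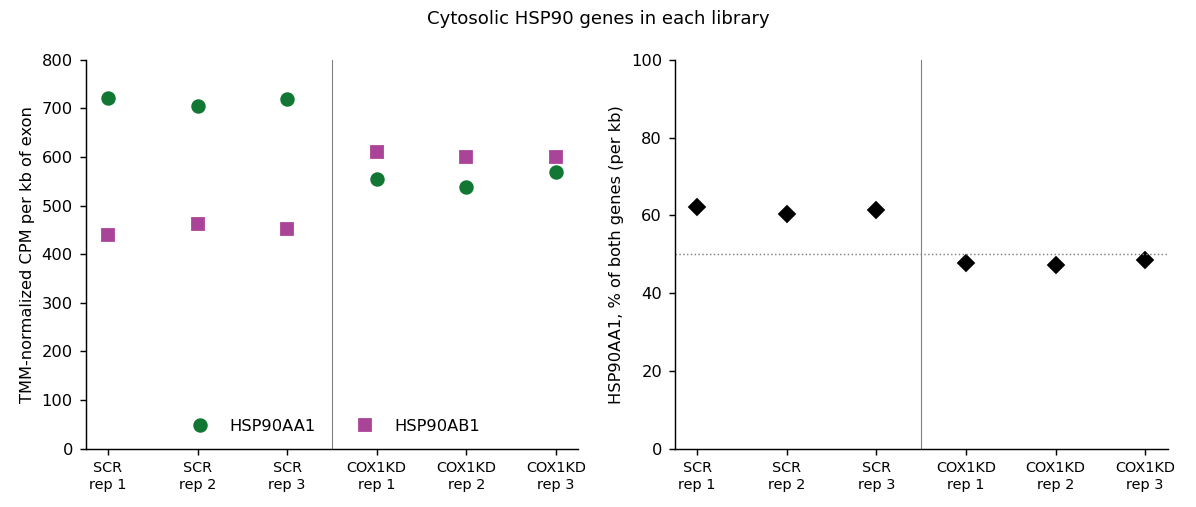
Left, TMM-normalized CPM per kb of exon of HSP90AA1 (circles) and HSP90AB1 (squares) in each library; right, the percentage of the pair's per-kb level that is HSP90AA1, with a dotted line at 50%. HSP90AA1 lies above HSP90AB1 in the 3 OV3/SCR libraries, at 60.4% to 62.2% of the pair, and below it in the 3 OV3/COX1KD libraries, at 47.3% to 48.6%.

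In mitochondria, TRAP1, the HSP90 of that compartment, rose by a log2 fold change of 0.15 (edgeR FDR 9.7e-04); it was not called under total count scaling, and 41.9% of its exon length overlaps other genes, DNASE1 among them. The chaperonin pair fell. HSPD1 (HSP60) had 19470, 18610 and 18581 counts in OV3/SCR and 16193, 15888 and 17561 in OV3/COX1KD, with no overlap between the groups. Its log2 fold change was -0.16 (SE 0.0278, edgeR FDR 5.8e-05). HSPE1 (HSP10), the lid of the HSP60 chamber, which shares a bidirectional promoter with HSPD1, had a log2 fold change of -0.15 (edgeR FDR 0.00123), a call lost without OV3/SCR replicate 1 or 3, without OV3/COX1KD replicate 1 and with DESeq2. The count ratio of HSPD1 to HSPE1 was 7.98 ± 0.158 in OV3/SCR and 7.94 ± 0.0922 in OV3/COX1KD (SD, n = 3), a difference smaller than the spread (exact two-sided permutation p = 0.80).

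J-domain proteins deliver clients to HSP70 and stimulate its ATPase. Of the 7 members, 4 were lower (57.1%, where 22.1% of all tested genes were), 1 higher (14.3%, where 25.8% were) and 2 did not pass. They were called at 71.4%, where 47.9% of all tested genes and 67.1% of the abundant genes were. DNAJA1 (HDJ2), a major cytosolic partner of HSPA8, had 15019, 14502 and 14529 counts in OV3/SCR and 11288, 11233 and 12332 in OV3/COX1KD. The groups did not overlap, and its level fell from 561 ± 3.65 to 453 ± 8.36 CPM (log2 fold change -0.31, SE 0.0277, edgeR FDR 1.2e-08).

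DNAJB2, a J-domain protein with ubiquitin-interacting motifs (chromosome 2, 220144064 to 220151620, plus strand), had 830, 826 and 776 counts in OV3/SCR and 568, 500 and 541 in OV3/COX1KD. The lowest OV3/SCR library was again above the highest OV3/COX1KD library, with a log2 fold change of -0.56 (SE 0.0569, edgeR FDR 5.6e-08). The 32 genes within 2 Mb of DNAJB2 had a median log2 fold change of -0.14, with 10 above and 22 below 0. Those within 2 Mb of DNAJB4, 8 in number, had a median of -0.17, with 2 above and 6 below 0. The part of these shifts in the DNAJB2 and DNAJB4 values was not tested. DNAJB4 was also lower (log2 fold change -0.46, edgeR FDR 1.4e-04), as was DNAJB6, which suppresses aggregation of polyglutamine proteins (-0.14, edgeR FDR 0.00136; not called with no filter on low counts, with DESeq2 or without OV3/SCR replicate 3). DNAJA2 rose by 0.14 (edgeR FDR 0.00315), a call lost under total count scaling and when OV3/SCR replicate 1 or 3, or replicate 3 of OV3/COX1KD, was left out. DNAJB1 (HSP40), a stress-inducible partner of HSP70, had a log2 fold change of 0.04 (edgeR FDR 0.307) and DNAJC7 of -0.07 (edgeR FDR 0.132); DNAJC7 was called lower under total count scaling.

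HSF1, the main transcription factor of the heat shock response, had 3974, 3680 and 3654 counts in OV3/SCR and 4056, 4050 and 4240 in OV3/COX1KD. After scaling, the 3 OV3/COX1KD libraries were above the 3 OV3/SCR libraries, at 161 ± 1.32 against 144 ± 4.5 CPM (log2 fold change 0.16, SE 0.0322, edgeR FDR 3.0e-04). The call was lost under total count scaling. The 73 genes within 2 Mb had a median log2 fold change of 0.20, with 52 above and 21 below 0, and the part of that shift in the HSF1 value was not tested. HSF2, a second factor of the family, had 670, 603 and 600 counts in OV3/SCR and 538, 556 and 614 in OV3/COX1KD. Its scaled levels did not overlap, but the difference did not pass (log2 fold change -0.10, SE 0.0572, edgeR FDR 0.136).

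Of the 9 HSP90 co-chaperones among the members, 7 fell and none rose (77.8% lower, where 22.1% of all genes and 26.9% of the abundant genes were), and the median log2 fold change was -0.20. The 10 further HSP90 co-chaperones tested that are not members went otherwise, with none lower, 2 higher and 8 that did not pass. CHORDC1 (morgana), which binds HSP90 through CHORD and CS domains (chromosome 11, 89933597 to 89956245, minus strand), had 2372, 2225 and 2278 counts in OV3/SCR and 978, 1025 and 1031 in OV3/COX1KD. Each OV3/COX1KD library was below every OV3/SCR library. Its level fell from 87.5 ± 1.88 to 39.5 ± 1.23 CPM (log2 fold change -1.15, SE 0.0398, edgeR FDR 6.8e-15). Its promoter window, shown above, holds the longest run of the motif among those printed, with 3 overlapping matches, and no exon of another gene overlaps it.

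PTGES3 (p23), which stabilizes the closed ATP-bound form of HSP90 (chromosome 12, 57057125 to 57082192, minus strand), had 16755, 16615 and 16514 counts in OV3/SCR and 11081, 11434 and 11832 in OV3/COX1KD. The groups did not overlap. Its level fell from 635 ± 5.62 to 447 ± 8.36 CPM (log2 fold change -0.51, SE 0.0278, edgeR FDR 6.9e-12), and over the alternatives the log2 fold change lay between -0.58 and -0.48, across the limit of 0.5. Against HSP90AB1, PTGES3 counts stood at a ratio of 0.472 ± 0.00909 in OV3/SCR and 0.249 ± 0.00669 in OV3/COX1KD (SD, n = 3), apart by -0.93 on the log2 scale (exact two-sided permutation p = 0.10, the smallest possible; 0.13 adjusted over 4 ratios).

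STIP1 (HOP), the adaptor that passes clients from HSP70 to HSP90, had 11803, 11562 and 11521 counts in OV3/SCR and 9704, 9728 and 10202 in OV3/COX1KD. It fell by 0.20 on the log2 scale (SE 0.0271, edgeR FDR 2.4e-06), with no overlap between the groups. CDC37, which brings kinases to HSP90, had a log2 fold change of -0.29 (edgeR FDR 3.3e-08), and AHSA1, an activator of the HSP90 ATPase, of -0.18 (edgeR FDR 1.4e-05). Among the immunophilins, which bind the tail of HSP90 in steroid receptor complexes, FKBP4 fell by 0.17 (edgeR FDR 6.2e-05) and PPID by 0.28 (edgeR FDR 7.7e-06), with 56.7% of the PPID exon length overlapped by ETFDH on the opposite strand. FKBP5, a target of the glucocorticoid receptor, was at -0.16 and did not pass (edgeR FDR 0.0175), but was called lower under total count scaling and among genes with at least 10 counts in every library. STUB1 (CHIP), the ubiquitin ligase that docks on HSP70 and HSP90, was at 0.07 (edgeR FDR 0.118), with 42.5% of its exon length overlapped by JMJD8.

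BAG proteins release nucleotide and client from HSP70 and route the client onwards. BAG1, linked to the proteasome, rose by a log2 fold change of 0.22 (edgeR FDR 3.1e-05). BAG3, linked to autophagy, fell by 0.31 (edgeR FDR 1.8e-07), from 103 ± 1.49 to 83 ± 1.7 CPM. BAG2, an inhibitor of CHIP, had 1596 to 1802 counts in OV3/SCR and 1178 to 1241 in OV3/COX1KD and fell by 0.46 (edgeR FDR 6.1e-08). Of its exon length, 44.2% overlaps other genes, mainly RAB23. The 8 genes within 2 Mb of BAG2 had a median log2 fold change of -0.20, with 3 above and 5 below 0. The part of that shift in the BAG2 value was not tested.

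Across all members, levels per kb of exon spanned about 3 orders of magnitude among the 39 tested, from 715 ± 9.01 CPM for HSP90AA1 to 0.695 ± 0.0579 for HSPA12A in OV3/SCR. The exon length is that of all annotated transcripts merged, which understates genes with many unused exons. Below HSP90AA1 came HSP90AB1 (451 ± 11.9) and HSPA8 (449 ± 9.66), which did not differ beyond their spread, then DNAJA1 (210 ± 1.37), PTGES3 (187 ± 1.65) and HSPB1 (183 ± 4.71), of which PTGES3 and HSPB1 lay within their spread. CDC37 (96.7 ± 0.991) and STIP1 (96.5 ± 0.322) could likewise not be ordered. In OV3/COX1KD the order began with HSP90AB1 (603 ± 6.21), HSP90AA1 (554 ± 15.3), HSPA8 (394 ± 12.3), HSPB1 (184 ± 6.95) and DNAJA1 (170 ± 3.13). CRYAB moved from place 24 to place 37 of 39, HSPH1 from 17 to 22, CHORDC1 from 30 to 34 and HSPA2 from 35 to 31.

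**Figure D4:**
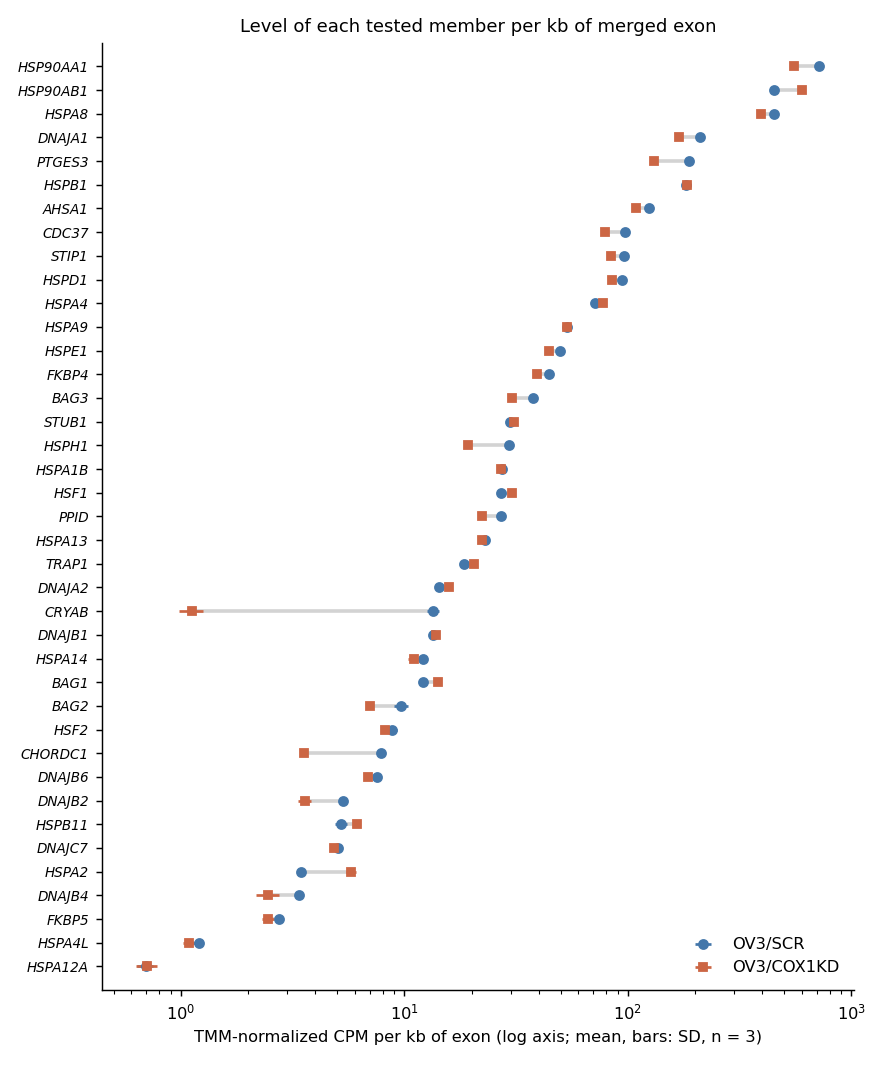
TMM-normalized CPM per kb of merged exon (log axis) of the 39 tested members in OV3/SCR (circles) and OV3/COX1KD (squares), mean and SD of 3 libraries, ordered by the OV3/SCR level. Most pairs of points nearly coincide, HSP90AA1 and HSP90AB1 change places at the top, and CRYAB drops from 13.5 to 1.12 CPM per kb.

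A further 85 genes of the chaperone network that are not members were read from the same fit. Of the 82 tested, 25 were higher (30.5%, where 25.8% of all genes were), 20 lower (24.4%, where 22.1% were) and 37 did not pass, with a median log2 fold change of 0.04. Under total count scaling 17 were higher and 28 lower. The TRiC chaperonin, which folds actin and tubulin, had 5 of 8 subunits lower and none higher (median -0.11). The 8 chaperones of the endoplasmic reticulum in a list of their own (HSPA5, HSP90B1, HYOU1, CALR, CANX, PDIA3, PDIA4 and PDIA6) were higher, where 25.8% of all genes and 40.3% of the abundant genes were, with log2 fold changes of 0.38 to 0.74 and a median of 0.67. J-domain proteins of that compartment, listed with the other J-domain proteins, did not all rise: DNAJB9 (0.26), DNAJB11 (0.26) and DNAJC10 (0.40) were higher, DNAJC1 was lower (-0.48, edgeR FDR 6.3e-07) and DNAJC3 did not pass (0.12, edgeR FDR 0.0790). HSPA5 (BiP), the HSP70 of that compartment, had 21777, 21081 and 21501 counts in OV3/SCR and 34714, 33832 and 36320 in OV3/COX1KD (log2 fold change 0.74, edgeR FDR 1.5e-14). HSP90B1 (GRP94), its HSP90, had 42916, 41735 and 41612 counts and 64862, 65852 and 68390 (0.69, edgeR FDR 2.2e-14). Neither overlapped between the groups.

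Calreticulin (CALR, 0.71), the disulfide isomerases PDIA3 (0.65), PDIA4 (0.67) and PDIA6 (0.66), and the J-domain gene DNAJB5 (0.90, from 40 to 44 counts in OV3/SCR to 70 to 83 in OV3/COX1KD) were the other rises beyond a log2 fold change of 0.5. The falls beyond 0.5 were DNAJC22 (-1.17, edgeR FDR 1.3e-08) and DNAJC15 (-1.10, edgeR FDR 7.2e-06), the latter a J-domain protein of the mitochondrial inner membrane. Among all tested genes, 25.8% were higher and 22.1% lower. Of 33 further J-domain proteins, 8 were higher (24.2%) and 9 lower (27.3%). Prefoldin had 2 of 6 subunits higher (33.3%) and the R2TP complex 1 of 4 (25%), with none lower. The HSP70 exchange factors had 2 higher (25%) and 3 lower (37.5%) of 8. Of 5 tested genes listed as regulators and partners of HSF, 2 were higher (40%) and 3 lower (60%). Among the lower was HSF4, itself a heat shock factor. It had 1380 to 1491 counts in OV3/SCR and 923 to 1111 in OV3/COX1KD (log2 fold change -0.49, edgeR FDR 1.4e-06). Whether one list differed from another was not tested.

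**Figure D5:**
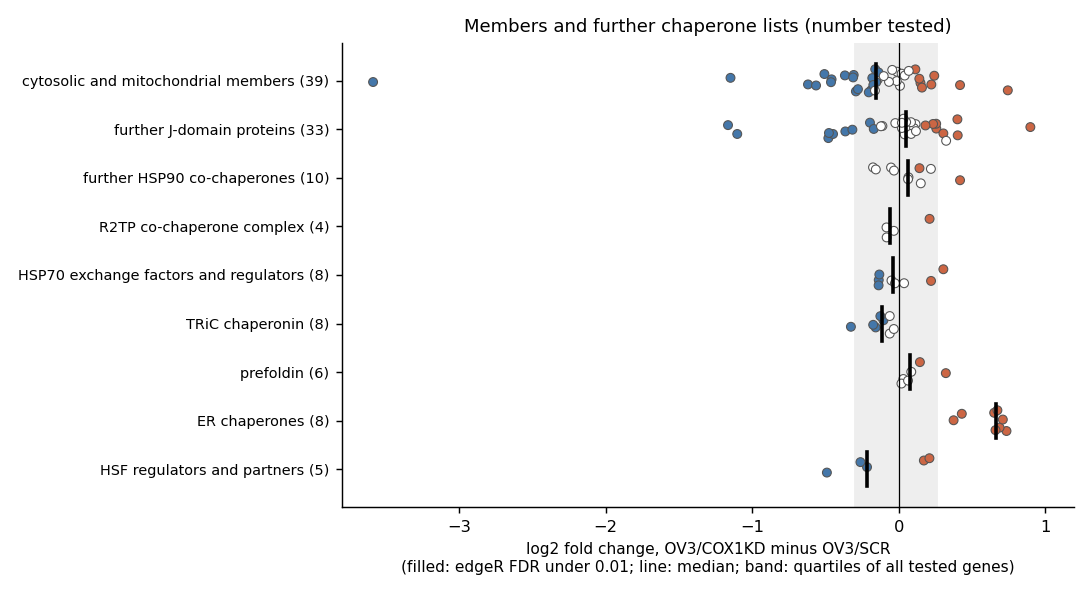
Log2 fold change of each tested gene (points; filled where the edgeR FDR was under 0.01) for the 39 members and 8 further chaperone lists, with black lines at the medians and a grey band between the quartiles of all tested genes, -0.30 and 0.26. The members' median is -0.15, the endoplasmic reticulum chaperones lie together between 0.38 and 0.74, and the TRiC subunits lie between -0.33 and -0.03.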

How the data were processed

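RNA-seq libraries were made with a TruSeq RNA kit, which does not mark strand, from 3 passages of each clone. Reads were aligned to hg19 (GRCh37) with TopHat2 2.0 and counted per gene with HTSeq, per the submitters' processing notes, and the authors deposited raw counts without normalization. The annotation and the strand setting of the counting are not given in the sources used here.

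Counts of 17309 of 34811 genes kept by filterByExpr were scaled by TMM and tested with glmQLFit and glmQLFTest in edgeR 4.0.16 (R 4.3.3), with condition as the only term and Benjamini-Hochberg adjustment over all genes kept (edgeR FDR, threshold 0.01). A limit on the log2 fold change of 0.5 was used as in the study's figures. Library totals were 25291505 to 27391538 counts, and the biological coefficient of variation was 3.21%. Exact permutation tests compared ratios of counts. Coordinates, overlaps and merged exon lengths came from GENCODE 44 lifted to GRCh37. Scripts were tested on simulated data.

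The members and lists were chosen with earlier results of these data known. Counts per library are given for members beyond 0.5 with an edgeR FDR under 0.01, the 8 members of highest mean CPM, HSF1, HSF2, HSPA1A, HSPA1B and members outside the filter, and for HSPB1, which was added after its values were seen. Of the further lists, at most 6 genes beyond 0.5 per direction were to be named. PDIA3, HYOU1, CANX, HSF4 and the J-domain proteins DNAJB9, DNAJB11, DNAJC1, DNAJC3 and DNAJC10 of the endoplasmic reticulum were added after their values were seen. The alternatives were RLE and total count scaling, no filter, DESeq2 1.42.0, a minimum of 10 counts per library, a replicate block, leaving out each library, HSPA1A and HSPA1B summed, glmTreat for the counts beyond 0.5, and a pseudocount for ratios.

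The labels number the replicates 1 to 3 in each condition and speak of replicate pairs, but do not say what a pair shares. Deviations from the condition mean, correlated across genes, gave 0.002, 0.048 and 0.023 for same-numbered libraries and -0.042 to 0.020 for the others. All were small, and the numbers were not taken as pairs in the main fit.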

Additional observations from a re-analysis of the deposited data

How the results depend on the processing

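The 27 member calls were kept under RLE scaling, among genes with at least 10 counts in every library, without OV3/COX1KD replicate 2 and with HSPA1A and HSPA1B summed; 26 were kept with no filter on low counts, 24 with DESeq2, 22 under total count scaling and 24 to 27 without a library. With the replicate number as a block, 27 of 27 were kept (replicate block, 8 higher and 19 lower), and 8233 genes were called in place of 8293. 4 of 6 libraries correlated best with the library of their own number, a hint of pairing, and the labels do not say what a pair shares. Under total count scaling 3 members were higher in place of 8, and glmTreat against a log2 fold change of 0.5 left 3 members lower in place of 5. No called member changed sign. Among members that did not pass, total count scaling turned HSPB1 to -0.069, HSPA12A to -0.057, DNAJB1 to -0.037 and STUB1 to -0.009, at least 10 counts in every library turned HSPB1 to -0.008, and no filter turned HSPA1B to 0.010 and HSPA9 to 0.010. Without 1 library, log2 fold changes ran from -0.007 to 0.042 for HSPB1, -0.029 to 0.016 for HSPA1B, -0.023 to 0.002 for HSPA9 and -0.065 to 0.069 for HSPA12A, and the log2 difference in the HSPD1 to HSPE1 ratio from -0.016 to 0.010. The cause of these changes was not tested. CRYAB stayed between -3.67 and -3.48 and CHORDC1 between -1.23 and -1.13 over all alternatives run. For the 6 members outside the filter, at 5 to 51 counts summed over the 6 libraries, depth limits any statement.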
